A study of Mus musculus with 10 samples.

Results

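Interferon-stimulated genes are the genes that a cell switches on when its interferon receptors are engaged, and 39 of them were followed here, gene by gene, in RNA-seq of erythroid progenitors from mouse bone marrow. The 39 were picked by symbol from the count table of 24421 genes, as targets of type I interferon and genes of antigen processing, without the interferon-induced GTPases and the nucleic acid sensors. No expression value entered that choice, although it was made with earlier results of these data known. All 39 were in the table, and all 39 passed the filter on low counts, which left 11846 genes. The study asked how loss of 1 allele of *Ddx41*, a gene for a DEAD-box RNA helicase, changes erythroid progenitors, and whether loss of 1 allele of *Trp53*, the gene for p53, alters that change.

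Lethally irradiated BoyJ recipients received 1000000 bone marrow cells from donors that all carried RosaCreERT2, a tamoxifen-activated Cre recombinase driven from the ubiquitous Rosa26 locus. The Ddx41+/- donors carried 1 floxed *Ddx41* allele, and the Trp53+/- donors carried a germline *Trp53* knockout allele. Every recipient, controls included, had 2 rounds of tamoxifen, each of 5 daily doses of 1 mg. At 8 weeks after transplant, about 100000 CD71+Ter119+ cells per mouse were sorted. CD71 is the transferrin receptor and Ter119 marks erythroid cells, and cells with both form the R2 stage. The sort did not use a marker of donor origin, so surviving host cells were not removed, and age and sex are not given in the labels. Each library was 1 mouse: Ddx41+/+Trp53+/+ (3 mice, replicates 10, 11 and 12), Ddx41+/-Trp53+/+ (2 mice, 32 and 34), Ddx41+/+Trp53+/- (3 mice, 22, 23 and 24) and Ddx41+/-Trp53+/- (2 mice, 46 and 47).

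Type I interferons bind a receptor made of IFNAR1 and IFNAR2, and the kinases on it phosphorylate STAT proteins. The complex ISGF3, which holds STAT2 and IRF9, enters the nucleus and binds a short DNA element, the interferon-stimulated response element (ISRE), in the promoters of its targets. The products block viral replication at many steps, tune the pathway itself and raise the supply of peptides for class I antigen presentation. Type II interferon acts through a different element, the gamma-activated sequence (GAS). Blood-forming cells carry these receptors, and DDX41 has been described as a sensor of nucleic acids upstream of interferon production.

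Both elements were looked for in RefSeq promoters of the build GRCm38.p6, each promoter running from 250 bases before to 50 bases after the start of transcription. A promoter was given for 32 of the 39 genes. None was given for *Usp18*, *Ifi27l2a*, *Oas2*, *Mx1*, *Parp9*, *Parp14* or *Rtp4*, so these were not searched. An ISRE core, spelled GAAANNGAAA on either strand, was in the promoter of 11 of the 32 (34.4%), against 3.99% of 27025 genes with a promoter. A GAS core, TTCNNNGAA, was in 7 of the 32 (21.9%), against 9.55% of all genes. Whole promoters are shown for the 3 genes with an ISRE core among the 5 that were highest per length in these cells. They are printed from 5′ to 3′ in the direction of the gene, with the ISRE cores in capitals, and read TTTCNNTTTC where the core lay on the opposite strand.
Rsad2 (chr12:26456403-26456702, minus strand): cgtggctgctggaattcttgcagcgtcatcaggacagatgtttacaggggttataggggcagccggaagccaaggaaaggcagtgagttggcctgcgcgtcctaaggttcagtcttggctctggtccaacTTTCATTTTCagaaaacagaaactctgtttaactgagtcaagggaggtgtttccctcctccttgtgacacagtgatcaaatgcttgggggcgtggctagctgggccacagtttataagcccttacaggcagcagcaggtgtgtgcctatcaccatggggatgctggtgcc
Isg15 (chr4:156200769-156201068, minus strand): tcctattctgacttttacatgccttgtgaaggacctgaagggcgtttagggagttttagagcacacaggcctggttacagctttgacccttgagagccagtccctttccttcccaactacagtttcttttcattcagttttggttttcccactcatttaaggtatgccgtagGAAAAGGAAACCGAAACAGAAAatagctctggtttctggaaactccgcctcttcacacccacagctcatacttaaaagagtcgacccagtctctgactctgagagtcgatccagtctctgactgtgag
Oas3 (chr5:120777610-120777909, minus strand): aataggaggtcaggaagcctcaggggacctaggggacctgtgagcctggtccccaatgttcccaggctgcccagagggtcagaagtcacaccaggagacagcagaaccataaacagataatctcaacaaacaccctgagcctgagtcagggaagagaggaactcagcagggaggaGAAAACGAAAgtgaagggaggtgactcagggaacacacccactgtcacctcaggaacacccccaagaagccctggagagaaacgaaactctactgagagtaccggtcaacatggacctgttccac
In *Isg15*, 3 cores overlapped in 1 run that began 78 bases before the start site. *Oas3* had 1 core, 75 bases before the start, and *Rsad2* had 1 core on the opposite strand, 120 bases before it. Stretches of 30 bases around a core are shown for the other 8 genes, since *Oas1a*, *Slfn5* and *Stat2* among them carry results described further on.
Stat2 (chr10:128270266-128270295, plus strand): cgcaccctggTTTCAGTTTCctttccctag
Oas1a (chr5:120907523-120907552, minus strand): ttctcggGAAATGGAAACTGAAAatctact
Ifit1 (chr19:34640784-34640813, plus strand): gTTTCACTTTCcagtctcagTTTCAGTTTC
Ifit3 (chr19:34583397-34583426, plus strand): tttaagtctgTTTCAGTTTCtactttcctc
Eif2ak2 (chr17:78882535-78882564, minus strand): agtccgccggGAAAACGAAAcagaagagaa
Bst2 (chr8:71537580-71537609, minus strand): attccagGAAAATGAAACTGAAAggctgca
Trim30a (chr7:104446104-104446133, minus strand): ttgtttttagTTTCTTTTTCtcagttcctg
Slfn5 (chr11:82951937-82951966, plus strand): ccttcaaagtGAAAAAGAAAaaaaaaaaag
Among these, *Oas1a* and *Bst2* held 2 overlapping cores, and *Ifit1* and *Ifit3* each held 2 separate cores, of which both of *Ifit1* and 1 of *Ifit3* lie in the stretch shown. *Oas1a*, *Eif2ak2* and *Bst2* also held a GAS core. A match is a run of letters and not a tested binding site.

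The libraries held 7866648 to 20283930 counts, the shallowest being Ddx41+/-Trp53+/+ mouse 34. Values are CPM, that is, counts scaled to a common library size of 1000000, after TMM adjustment of the libraries, and changes are log2 fold changes from edgeR's quasi-likelihood test with Benjamini-Hochberg adjustment over all 11846 genes. To be called changed, a gene needed both an adjusted p under 0.05 and a fold change above 1.5. *Ddx41* was 25.1, 21.9 and 22.6 CPM in Ddx41+/+Trp53+/+ mice, 13.8 and 16.5 in Ddx41+/-Trp53+/+, 26.6, 22.9 and 23.2 in Ddx41+/+Trp53+/- and 12.5 and 15.6 in Ddx41+/-Trp53+/-. Every Ddx41+/- mouse was below every Ddx41+/+ mouse, and over both *Trp53* genotypes *Ddx41* was called lower (log2 fold change -0.70, SE 0.108, adjusted p = 0.0173). Within a single *Trp53* genotype *Ddx41* was not called by edgeR's quasi-likelihood test. It was at -0.63 with Trp53+/+ (adjusted p = 0.0887) and -0.78 with Trp53+/- (adjusted p = 0.177). *Trp53* was 57.4 to 68.1 CPM in the 5 Trp53+/+ mice and 40.3 to 46.2 CPM in the 5 Trp53+/- mice, with no overlap. It was not called either, since its log2 fold changes of -0.42 in Ddx41+/+ and -0.55 in Ddx41+/- mice were smaller than 1.5-fold. In the pairwise comparisons the rule thus missed the deleted genes themselves. Erythroid marker genes summed to 52801 to 60465 CPM, led by *Slc4a1*, the anion exchanger of the red cell membrane. The globins were an exception: *Hba-a1* reached 1.28 CPM at most and *Hbb-bt* was at 0 in all 10 libraries, although these are near-identical copies whose reads such counting can drop. Neutrophil markers summed to 5023 to 8623 CPM, monocyte markers to 1068 to 1571, macrophage markers to 313 to 729, B cell markers to 326 to 742, and T and NK cell markers to 22.5 to 38.9. Of the macrophage markers *Marco* was at 0 in 6 of the 10 libraries and the others were detected in all, and all B cell markers in the table were detected in all. In bulk RNA of a sorted population, fewer expressing cells and less RNA per cell cannot be told apart.

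All 39 genes had counts in every library, down to 3 counts for *Ifi44*, although from which of the sorted cells these came was not tested. Their levels per kilobase of exon covered a wide range. *Rsad2*, which codes for viperin, an antiviral enzyme that makes a chain-terminating nucleotide, averaged 357 ± 53.04 CPM per kb (SD, n = 10). *Isg15*, a ubiquitin-like protein that is attached to other proteins, averaged 349 ± 57.7 CPM per kb, and these leading genes did not differ beyond their spread. *Tapbp*, which codes for tapasin, the bridge between MHC class I and the peptide transporter, followed at 56.5 ± 3.53 CPM per kb. *Cmpk2*, a mitochondrial nucleotide kinase that lies beside *Rsad2*, was at 54.3 ± 3.91, not apart from *Tapbp*. *Oas3*, which makes the 2′-5′ oligoadenylates that activate RNase L, was at 35.9 ± 5.52 CPM per kb, with its highest mouse below the lowest mouse of *Cmpk2*. At the other end were *Ifit3*, *Mx1* and *Ifi44*, at 1.08, 0.405 and 0.117 CPM per kb.

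**Figure D1:**
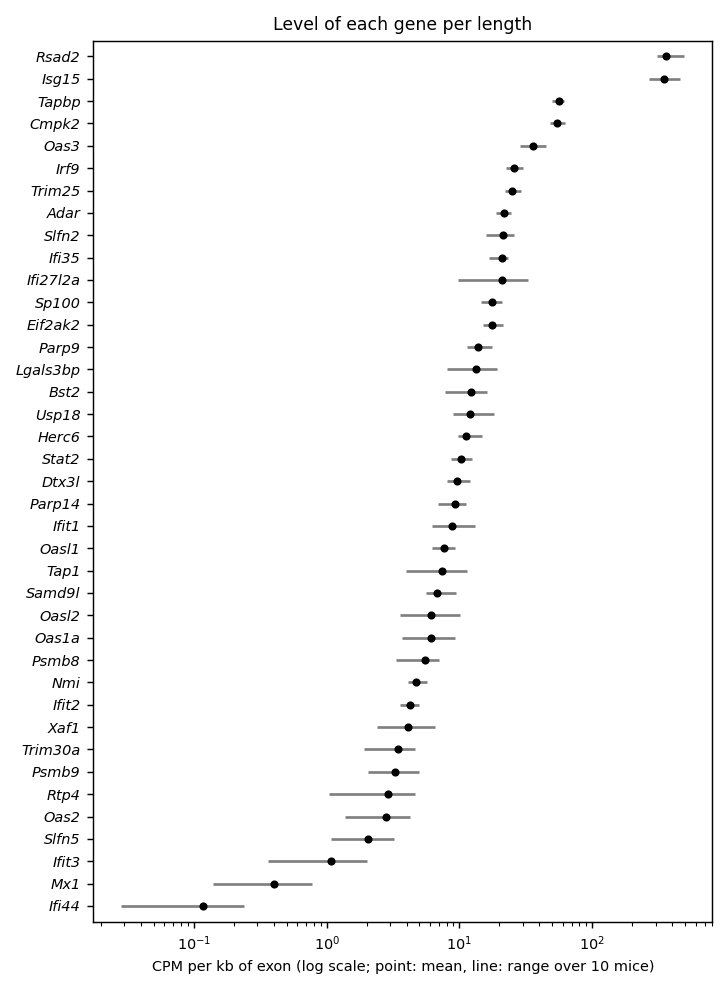
Level of each of the 39 interferon-stimulated genes in CPM per kilobase of exon on a log axis, with a point at the mean of the 10 mice and a line from the lowest to the highest mouse. *Rsad2* and *Isg15* stand above all others at means of 357 and 349 CPM per kb, and *Ifi44* is last at 0.117.

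*Rsad2* alone held 36.4% to 42.7% of the summed CPM of the 39 genes in each library. Raw counts were at least 10 in every library for 36 of the 39 genes. The lowest were *Ifi44* with 3 to 26 counts, *Ifit3* with 7 to 58 and *Mx1* with 8 to 48, so few reads lie behind the values of these 3. Several of the genes are neighbours. *Rsad2* and *Cmpk2* lie within 37.1 kb of chromosome 12, *Oas2*, *Oas3* and *Oas1a* within 177.2 kb of chromosome 5, and *Ifit2*, *Ifit3* and *Ifit1* within 99.3 kb of chromosome 19. *Tapbp*, *Psmb9*, *Tap1* and *Psmb8* lie within 285.6 kb of chromosome 17, in the MHC region. Sequence shared with other genes also limits some values. Of the 75-base stretches of *Oas1a*, 47.6% also occur in another gene (chiefly *Oas1g*), and 41.1% of those of *Ifit3* do (*Ifit3b*). The antisense neighbours *Parp9* and *Dtx3l* overlap by 458 bases, and *Psmb9* and *Tap1* by 212 bases. Since the strand setting of the counting is not given, reads in these stretches cannot be assigned to 1 of the pair.

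Over all 10 mice, the ratio of highest to lowest had a median of 1.66 for the 39 genes, beside 1.59 for all tested genes. That ratio takes in differences between genotypes as well. Mice of one genotype also differed from each other in these genes. In each genotype, 1 mouse was highest for most of the 39. Ddx41+/+Trp53+/+ mouse 12 was the highest of its genotype for 31 of 39 (34.9% of all genes), and Ddx41+/+Trp53+/- mouse 23 for 29 of 39 (34%). Ddx41+/-Trp53+/+ mouse 34 was the higher of its pair for 26 of 39 (49.9%), and Ddx41+/-Trp53+/- mouse 47 for 32 of 39 (52.7%). The median deviation of the 39 genes from their own 10-mouse means, on the log2 scale, was -0.08, -0.10 and 0.17 in Ddx41+/+Trp53+/+ mice 10, 11 and 12. It was 0.08 and 0.18 in Ddx41+/-Trp53+/+ mice 32 and 34. It was -0.21, 0.03 and -0.25 in Ddx41+/+Trp53+/- mice 22, 23 and 24, and -0.02 and 0.22 in Ddx41+/-Trp53+/- mice 46 and 47. The highest value was that of mouse 47 and the lowest that of mouse 24, and the Ddx41+/+ and Ddx41+/- mice overlapped.

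**Figure D2:**
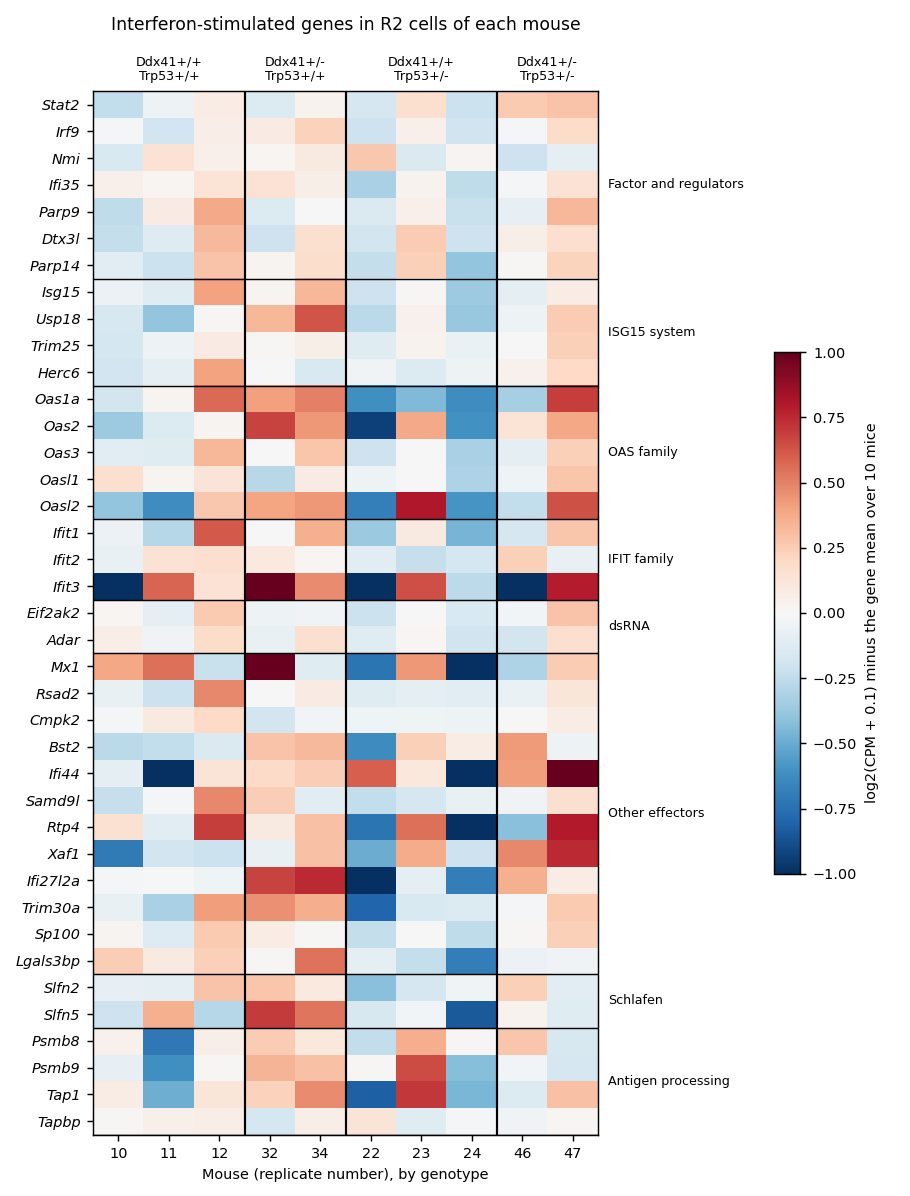
Heatmap of the 39 genes (rows, by role) in the 10 mice (columns, by genotype). Colour is log2(CPM + 0.1) minus the mean of the gene over the mice, cut at -1 and 1. The columns of mice 12, 34, 23 and 47 are the warmest of their genotypes for most genes, and *Tap1*, *Psmb8* and *Psmb9* are warmest in mouse 23.

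The pair of Ddx41+/+ mice that stood highest did not share a pattern. *Rsad2* was 1459.8, 1324 and 2134 CPM in Ddx41+/+Trp53+/+ mice 10, 11 and 12, 1531 and 1620.2 in Ddx41+/-Trp53+/+, 1413, 1434 and 1418 in Ddx41+/+Trp53+/- and 1463 and 1667 in Ddx41+/-Trp53+/-. Mouse 12 thus stood above the other 9 libraries, while mouse 23 was level with its own genotype. *Isg15* was 249.6, 239 and 344 CPM, then 265 and 328, then 226, 262 and 202, then 243 and 275, in the same order of genotypes, again with mouse 12 the highest. *Tap1*, a subunit of the transporter that carries peptides to MHC class I, was instead highest in mouse 23, at 62.9 CPM beside 21.8 and 28.1 in mice 22 and 24. The 4 antigen processing genes had a median deviation of 0.51 on the log2 scale in mouse 23 and of 0.06 in mouse 12. Some genes outside the 39 that belong to the same process were also at their highest in mouse 23. *B2m*, the light chain of MHC class I, was at 939 CPM there (479 to 798 in the others). *H2-K1*, a heavy chain, was at 312 (140.2 to 247), and *Irf1*, a transcription factor for these genes, at 27.3 (8.41 to 21.4). These genes were picked out after their values were seen, and most others of class I antigen presentation were not highest in mouse 23. *Tap2* was 30.3 CPM in mouse 23 and 38.6 in mouse 34, and *Tapbp* was 188 CPM in mouse 23 (181 to 224 in the others).

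Between Ddx41+/- and Ddx41+/+ mice with Trp53+/+, none of the 39 genes passed the test, and most of the differences were small. The clearest was *Usp18*, which codes for the enzyme that removes ISG15 from proteins and that holds down interferon receptor signalling. The gene lies at chr6:121245906-121270917 (GRCm38, plus strand). It was 29.2, 24.8 and 32.9 CPM in the Ddx41+/+ mice and 41.1 and 50.7 CPM in the Ddx41+/- mice. Both Ddx41+/- mice were above all 3 controls, and the difference missed the threshold in edgeR's quasi-likelihood test (log2 fold change 0.66, SE 0.157, adjusted p = 0.072). Of all 11846 genes, 0.54% were called. At an unadjusted p under 0.05, 5 of the 39 were higher (5.52% of all genes) and 1 was lower (4.12%). DESeq2 (1.11% of all genes called) and edgeR's likelihood ratio test (1.54%) each called 1 of the 39, *Usp18* in both cases.

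Next in order of p was *Ifi27l2a*, a small interferon-induced protein of the mitochondrial and nuclear membranes (chr12:103442167-103443680, minus strand), at 8.97, 9.09 and 8.79 CPM in Ddx41+/+ and 14.5 and 15.2 CPM in Ddx41+/- mice. The groups were well apart, with a log2 fold change of 0.73 (SE 0.219, adjusted p = 0.201, edgeR). *Slfn5*, of the Schlafen family of growth regulators, was 10.7, 15.8 and 10.2 CPM against 20.2 and 18, with both Ddx41+/- mice above the controls (0.64, adjusted p = 0.335). *Oas2*, an oligoadenylate synthetase, was 9.12, 10.7 and 12 CPM against 18.8 and 15.9, also without overlap (0.72, adjusted p = 0.377). *Cmpk2* went the other way, at 223, 239.8 and 259 CPM against 199 and 221. Its groups just missed each other, for a small difference of -0.20 (SE 0.0804, adjusted p = 0.423). In all, the groups did not overlap for 12 genes in the higher direction (12.9% of all genes) and for 1 in the lower direction (12.1%).

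By role, the differences with Trp53+/+ were unequal in size, though none passed the test. Of the 7 genes of signalling and transcription, 5 were higher and 2 lower, with a median log2 fold change of 0.03. These are *Stat2* and *Irf9* of ISGF3, *Nmi* and its partner *Ifi35*, and *Parp9*, *Dtx3l* and *Parp14* of ADP-ribosylation. All 7 had a 95% interval within 1.5-fold, as did 51.3% of all genes. *Stat2* was 51, 58.5 and 63.8 CPM against 54.9 and 62, with overlap (0.01, 95% interval -0.25 to 0.28). *Irf9* was 137, 121 and 145 CPM against 146 and 162, so that its groups were separate by a narrow margin (0.20, 95% interval -0.02 to 0.42).

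Of the ISG15 system (*Isg15*, *Usp18*, *Trim25* and the ligase *Herc6*) 3 of 4 genes were higher, with a median of 0.09. *Isg15* itself overlapped between the genotypes (0.10, 95% interval -0.20 to 0.40). In the 5 oligoadenylate synthetase genes the median was 0.29, and 4 were higher. *Oas2* and *Oasl2*, a synthetase-like protein, were separate, and *Oas3* overlapped (0.09, 95% interval -0.21 to 0.38). The 3 IFIT genes, *Ifit1*, *Ifit2* and *Ifit3*, which bind viral RNA ends, had a median of 0.05. The RNA-binding pair *Eif2ak2* (the kinase PKR) and *Adar* (an RNA editing enzyme) had a median of -0.07, and both had intervals within 1.5-fold (51.3% of all genes).

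The 12 antiviral effectors split into 7 higher and 5 lower, with a median of 0.22. They were *Mx1*, *Rsad2*, *Cmpk2*, *Bst2* (tetherin), *Ifi44*, *Samd9l*, *Rtp4*, *Xaf1*, *Ifi27l2a*, *Trim30a*, *Sp100* and *Lgals3bp*. *Rsad2*, the most abundant, overlapped (-0.06, 95% interval -0.35 to 0.23). *Bst2* lies in a stretch of chromosome 8 where other genes were called in this comparison. Of 11427 tested genes with a known position, 60 were called. Of these 60, 6 were among the 132 tested genes within 10 Mb of *Bst2* (1.16% of those with a position). Both Schlafen genes, *Slfn5* and *Slfn2*, were higher. Of the 4 antigen processing genes, *Psmb8* and *Psmb9* (immunoproteasome subunits) and *Tap1* were separate and higher, with log2 fold changes of 0.36, 0.53 and 0.43, and *Tapbp* overlapped (-0.10, 95% interval -0.29 to 0.09).

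This comparison leaned on mouse 12. The median over the 39 genes was 0.09, with 26 higher and 13 lower, beside a median of 0.0010 over all genes. Without mouse 12 the median was 0.25, 35 of 39 were higher, 12 were higher at an unadjusted p under 0.05 (7.22% of all genes in that fit), and *Usp18* was called (0.872% of all genes). Mouse 12 was the control with the highest value for most of the 39, so leaving it out raises the difference by construction. Without mouse 10 the median was 0.027, with 23 higher and 16 lower. B cell markers moved with the same contrast, all 14 being higher with a median of 1.02 and 3 called, and summing to 563, 339 and 326 CPM in Ddx41+/+ and 527 and 742 CPM in Ddx41+/- mice. Macrophage markers were higher for 3 of 13 genes, with sums of 729, 384 and 666 CPM against 472 and 622 CPM. Their part in the result was not tested.

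With Trp53+/-, again none of the 39 genes passed the test between Ddx41+/- and Ddx41+/+ mice, in a comparison where 0.0422% of all genes were called. *Ifi27l2a* was 4.5, 8.47 and 5.59 CPM in Ddx41+/+ mice 22, 23 and 24 and 11.6 and 9.53 CPM in Ddx41+/- mice. The groups were separate here too (log2 fold change 0.75, SE 0.224), but edgeR's adjusted p was 1.00. *Oas1a*, an oligoadenylate synthetase with an ISRE core 20 bases before its start site, was 7, 7.91 and 6.99 CPM against 8.54 and 17.4. Both Ddx41+/- values were above the controls, but by little in mouse 46 (0.83, SE 0.266, adjusted p = 1.00, edgeR). *Xaf1*, a pro-apoptotic partner of XIAP, was 12.9, 23.5 and 15.7 CPM against 25.4 and 30.6, separate but with mouse 23 close to the Ddx41+/- mice (0.68, SE 0.217).

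*Stat2* was 54, 67.6 and 52.2 CPM in these Ddx41+/+ mice and 72.4 and 73.7 in Ddx41+/- mice, without overlap (0.33, SE 0.121). *Sp100*, a protein of nuclear bodies, was 111, 131 and 110.2 against 132 and 154, separate although mice 23 and 46 were almost level (0.28, SE 0.112). Their adjusted p values were also 1.00 in edgeR's quasi-likelihood test. At an unadjusted p under 0.05, 6 of the 39 were higher (2.15% of all genes) and 0 were lower (1.6%), and DESeq2 and the likelihood ratio test called 0. The groups were separate for 12 genes in the higher direction (9.23% of all genes) and for 0 in the lower direction (10.8%).

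Counted by direction, 36 of the 39 were higher with Trp53+/-, with a median log2 fold change of 0.24 beside -0.0050 over all genes. All 12 effectors, all 5 oligoadenylate synthetase genes, all 4 genes of the ISG15 system and all 3 IFIT genes had positive differences, with medians of 0.32, 0.25, 0.18 and 0.27. Of the 7 signalling genes 6 were higher, the exception being *Nmi* at -0.21. The 4 antigen processing genes had a median of -0.0031, and 2 of them were lower. Single mice moved these counts. Without mouse 47 the median was 0.11, with 31 higher, of which 3 at an unadjusted p under 0.05 (2.81% of all genes in that fit). Without mouse 23 the median was 0.34, with 16 higher at an unadjusted p under 0.05 (3.91% of all genes), but mouse 23 was the control highest for most of the 39, so leaving it out raises the difference by construction. In both fits 0 were called. Macrophage markers moved the same way as the 39 genes: all 13 were higher with a median of 0.54 (0 called), summing to 436, 383 and 313 CPM in Ddx41+/+ and 632 and 502 CPM in Ddx41+/- mice. B cell markers were higher for 8 of 14 genes, with a median of 0.01. The part of either cell type in the result was not tested.

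The 2 comparisons of the *Ddx41* genotypes share no mouse. Of the 39 genes, 24 were higher in Ddx41+/- mice in both (28% of all genes), and 1 was lower in both. The groups were separate and higher in both for 2 of 39, *Ifi27l2a* and *Xaf1* (1.81% of all genes). *Ifi27l2a* was the only one of the 39 that was higher at an unadjusted p under 0.05 in both, as were 48 of all 11846 genes.

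**Figure D3:**
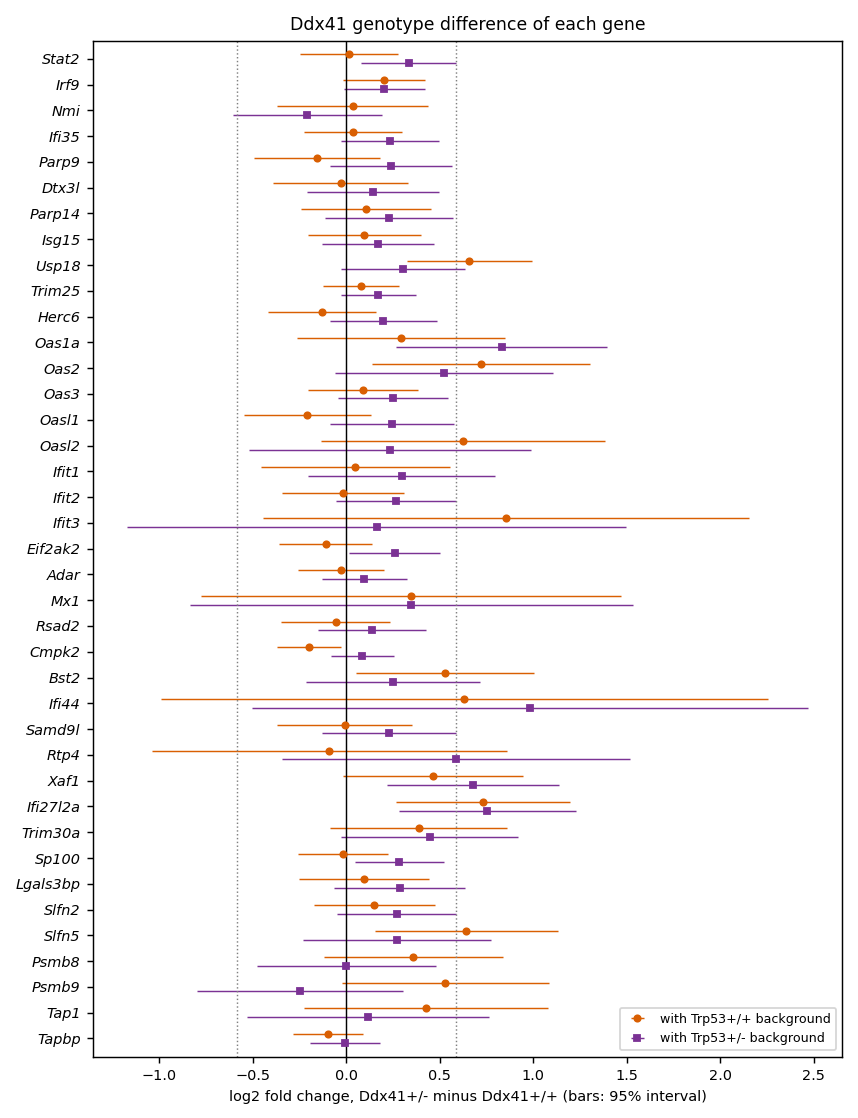
Log2 fold change of Ddx41+/- against Ddx41+/+ mice for the 39 genes, with 95% intervals, in Trp53+/+ mice (circles) and in Trp53+/- mice (squares), each with 2 against 3 mice. Dotted lines mark 1.5-fold. Most points lie right of 0 in the Trp53+/- mice (36 of 39) and on both sides in the Trp53+/+ mice (26 of 39 right), and *Ifi27l2a* is near 0.74 in both.

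Taking both *Trp53* genotypes in an additive model, which sets 4 Ddx41+/- against 6 Ddx41+/+ mice, *Ifi27l2a* came nearest to the threshold, with a log2 fold change of 0.74 (95% interval 0.42 to 1.07, adjusted p = 0.0639, edgeR). All 4 Ddx41+/- mice (9.53 to 15.2 CPM) were above all 6 Ddx41+/+ mice (4.5 to 9.09 CPM), which held for 1 of the 39 genes (0.794% of all genes), and for 0 in the lower direction (0.777%). *Usp18* was next at 0.48 (adjusted p = 0.146). With Trp53+/- it was 27.1, 33.7 and 25.1 CPM against 31.7 and 39, so that control mouse 23 lay between the Ddx41+/- mice. *Xaf1* was at 0.57 (adjusted p = 0.23). With Trp53+/+ it was 11.1, 15.9 and 15.7 CPM against 17.3 and 22.4, separate as in the other background. *Oas2* was at 0.62 (adjusted p = 0.33), and with Trp53+/- it was 6.1, 15.3 and 7.68 CPM against 12.9 and 15.4, with mouse 23 level with the Ddx41+/- mice. *Oas1a* was at 0.56 (adjusted p = 0.419), and with Trp53+/+ it was 9.49, 11 and 16 CPM against 14.4 and 15.4, with mouse 12 the highest.

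No gene of the 39 was called in this model (0.11% of all genes were). At an unadjusted p under 0.05, 9 were higher (5.06% of all genes) and 0 were lower (3.93%). These 9 were *Ifi27l2a*, *Usp18*, *Xaf1*, *Oas2*, *Oas1a*, *Irf9*, *Slfn5*, *Trim30a* and *Bst2*. DESeq2 (0.312% of all genes called) and edgeR's likelihood ratio test (0.439%) each called 1, *Ifi27l2a*. The median was 0.17, with 36 higher and 3 lower (*Cmpk2*, *Nmi* and *Tapbp*), and for 25 of the 39 the 95% interval lay within 1.5-fold (65.8% of all genes). *Rsad2* was among these at 0.04 (95% interval -0.17 to 0.25), as were *Isg15* at 0.13 (-0.07 to 0.34) and *Irf9* at 0.20 (0.05 to 0.35). Leaving out mouse 23 brought the calls to 2 of 39, *Ifi27l2a* and *Oas2* (0.355% of all genes). Without both mouse 12 and mouse 23, 5 were called (*Xaf1*, *Ifi27l2a*, *Oasl2*, *Oas2* and *Usp18*, with 0.297% of all genes). These were the Ddx41+/+ mice in which most of the 39 genes were highest, so that neither count is independent of the genes it describes. Without mouse 47, 29 of the 39 were higher and 10 lower. Markers of other cells moved with the same contrast, with 0 called: 14 of 14 B cell markers were higher (median 0.45), 13 of 13 macrophage markers (0.21) and 9 of 12 T and NK cell markers (0.24). Monocyte markers were higher for 6 of 8 (0.12), neutrophil markers for 8 of 11 (0.09) and plasmacytoid dendritic cell markers for 4 of 5 (0.11). Megakaryocyte markers were higher for 2 of 4 (-0.04), and erythroid markers for 1 of 11 (-0.07). The part of any of these cells in the result was not tested.

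**Figure D4:**
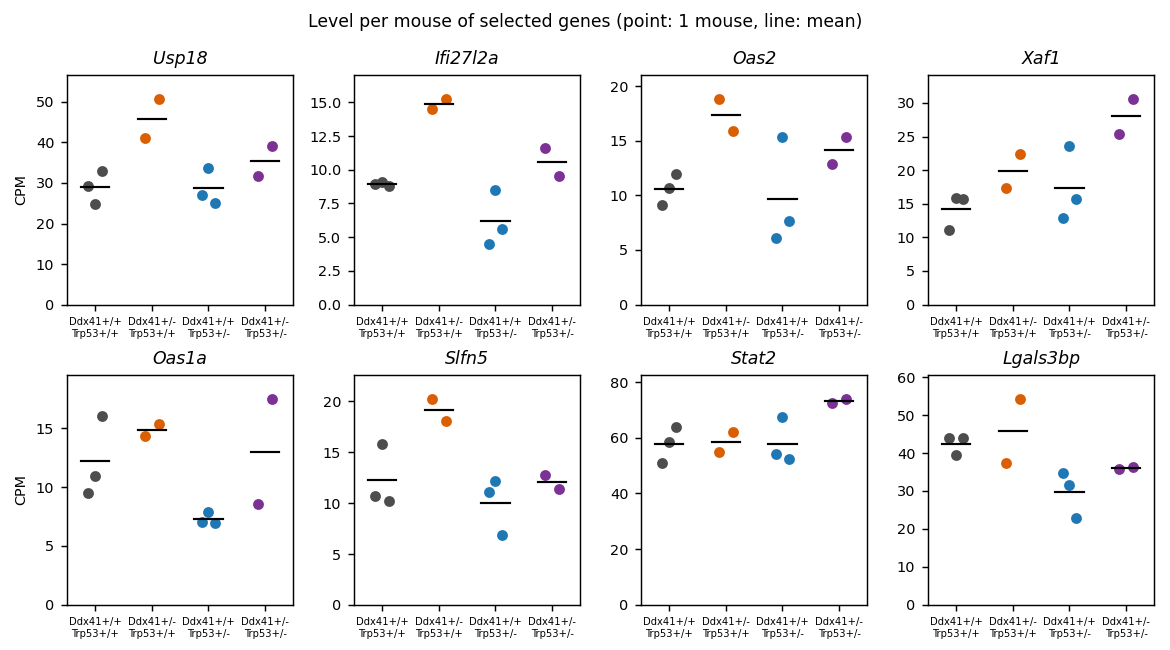
CPM of 8 interferon-stimulated genes in each of the 10 mice, 1 point per mouse and a line at the mean of each genotype. In the panel of *Ifi27l2a* the Ddx41+/- mice lie above the Ddx41+/+ mice in both *Trp53* backgrounds, and in the panel of *Usp18* this is so with Trp53+/+, while 1 Ddx41+/+Trp53+/- mouse (33.7 CPM) lies between the Ddx41+/- mice.

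Whether the *Ddx41* effect differed between the *Trp53* genotypes was tested as an interaction, for which no fold limit was set. None of the 39 passed (0.0675% of all genes did), by edgeR's quasi-likelihood test, DESeq2 or the likelihood ratio test, and 2 were positive at an unadjusted p under 0.05 (2.3% of all genes) and 0 negative (2.7%). *Cmpk2* was 219, 218 and 217 CPM in Ddx41+/+Trp53+/- and 225 and 238 CPM in Ddx41+/-Trp53+/- mice, the reverse of its order with Trp53+/+, and the difference between the effects was 0.28 (SE 0.113, adjusted p = 0.87, edgeR). *Eif2ak2* was 89.8, 83.1 and 107 CPM against 85.8 and 86.6 with Trp53+/+, and 76.6, 88.7 and 79.9 against 87.3 and 108 with Trp53+/-. Its groups overlapped in both backgrounds (interaction 0.37, adjusted p = 0.992). *Psmb9* was 11, 7.53 and 11.7 CPM against 14.7 and 14.2, then 11.7, 18.3 and 8.61 against 11.4 and 10.3. It was thus separate with Trp53+/+ alone, with mouse 23 highest of all, and its interaction of -0.78 had a 95% interval of -1.56 to 0.00.

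*Oasl1*, a synthetase-like protein that represses *Irf7* translation, was 22.2, 20.3 and 21.7 CPM against 16.4 and 21.1, then 19.2, 19.9 and 16.1 against 19.3 and 24.1, overlapping in both (interaction 0.45, adjusted p = 1.00, edgeR). *Sp100* was 134, 120.0 and 157 CPM against 138 and 132 with Trp53+/+, within the range of the controls (interaction 0.30). For *Ifi27l2a* the 95% interval of the interaction ran from -0.64 to 0.68, so a moderate difference between the backgrounds was not detectable in either direction. The median interaction over the 39 genes was 0.13, with 29 positive and 10 negative. It was -0.0035 without mouse 47, with 19 positive and 20 negative, 0.01 without mouse 12, with 20 positive and 19 negative, and 0.27 without mouse 23. Macrophage markers had a positive interaction for 13 of 13 genes, with a median of 0.62, and B cell markers a negative one for 14 of 14, with a median of -1.04. Their part was not tested.

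The loss of 1 *Trp53* allele was compared in the same mice, so these values share libraries with those above. In Ddx41+/+ mice, 30 of the 39 genes were lower with Trp53+/- and 9 were higher, with a median log2 fold change of -0.17, but 0 were called (0.912% of all genes were). By unadjusted p under 0.05, 5 were lower (4.02% of all genes) and 0 higher (5.42%), and DESeq2 and the likelihood ratio test called 0. This count depended on single mice. Without mouse 12, 16 genes were higher and 23 lower, with a median of -0.03. In that fit 2 were lower at an unadjusted p under 0.05 (4.62% of all genes). Without mouse 24, 15 were higher and 24 lower, without mouse 22, 12 and 27, and without mouse 23 or mouse 10, 7 and 32. Mouse 12 was the Trp53+/+ mouse highest for most of the 39, and mice 22 and 24 had the lowest median deviations. Leaving out mouse 12, 22 or 24 therefore shrinks the difference by construction. *Lgals3bp*, a secreted glycoprotein, was 44, 39.6 and 43.9 CPM with Trp53+/+ and 34.8, 31.5 and 22.9 with Trp53+/-. The groups did not overlap (-0.52, SE 0.148, adjusted p = 0.145, edgeR). *Oas1a* (-0.73, adjusted p = 0.254) and *Ifi27l2a* (-0.51, adjusted p = 0.4) were also separate, at the values given above. *Ifi35* was 37.3, 36.4 and 39.6 CPM against 28.8, 37 and 30.1, overlapping through mouse 23 (-0.24, adjusted p = 0.519). *Sp100* overlapped as well (-0.22, adjusted p = 0.519).

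The groups were separate for 6 genes in the lower direction (6.53% of all genes) and for 0 in the higher direction (7.58%). The effectors, the oligoadenylate synthetases and the IFIT genes had medians of -0.24, -0.22 and -0.26, whereas the antigen processing genes had a median of 0.15. Macrophage markers moved the same way as the 39 genes, with 0 of 13 higher and a median of -0.67 (0 called). B cell markers moved the other way, with all 14 higher, a median of 1.23 and 8 called, and their part in the result was not tested.

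In Ddx41+/- mice, 15 genes were higher and 24 lower with Trp53+/-, with a median of -0.06 and 0 called (0.169% of all genes were). Without mouse 46 the median was 0.07, with 23 higher and 16 lower. *Slfn5* was 20.2 and 18 CPM with Trp53+/+ and 12.7 and 11.4 with Trp53+/-, without overlap (-0.67, SE 0.255, adjusted p = 0.81, edgeR). *Usp18* was lower too (-0.37, adjusted p = 0.906) and *Stat2* higher (0.33, adjusted p = 0.845), both without overlap. *Xaf1* (0.51) and *Ifi27l2a* (-0.49) were separate in opposite directions. With 2 mice against 2, groups were separate for 6 of the 39 in the higher direction (18.8% of all genes) and 8 in the lower direction (18.5%). At an unadjusted p under 0.05, 1 was higher (2.79% of all genes) and 2 were lower (2.63%), and DESeq2 and the likelihood ratio test called 0. *Xaf1* lies 2.71 Mb from *Trp53* on chromosome 11, *Slfn5* 13.36 Mb and *Lgals3bp* 48.8 Mb from it. Within 10 Mb of *Trp53*, 4 of 244 tested genes were called in Ddx41+/+ mice and 2 in Ddx41+/- mice. Of all 11427 tested genes with a known position, 105 and 20 were called.

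Values not yet given for the named genes were as follows. *Irf9*, the DNA-binding subunit of ISGF3, was 119.6, 143 and 120.3 CPM in Ddx41+/+Trp53+/- and 137 and 157 in Ddx41+/-Trp53+/- mice, with mouse 23 inside the Ddx41+/- range. *Ifi35* was 39.8 and 37.5 CPM in Ddx41+/-Trp53+/+ mice and 35.5 and 39.8 in Ddx41+/-Trp53+/- mice, close to the Ddx41+/+Trp53+/+ mice. *Oas3* was 233, 231 and 317 CPM in Ddx41+/+Trp53+/+, 250.5 and 304 in Ddx41+/-Trp53+/+, 218, 251 and 201 in Ddx41+/+Trp53+/- and 235 and 296 in Ddx41+/-Trp53+/- mice. Mouse 12 was highest and mouse 24 lowest, as for *Isg15*. *Tapbp* was 207, 212 and 214, then 181 and 214, then 224, 188 and 202, then 200.1 and 207 CPM, with the genotypes overlapping throughout. *Lgals3bp* was 37.5 and 54.1 CPM in Ddx41+/-Trp53+/+ mice, on both sides of the controls, and 35.8 and 36.3 in Ddx41+/-Trp53+/- mice, above their controls by a narrow margin. *Slfn5* with Trp53+/- was 11.1, 12.2 and 6.87 CPM against 12.7 and 11.4, with overlap.

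The ligands that would start the pathway were hardly seen in these cells. Of 14 genes for type I and type II interferons, 13 had 0 counts in all 10 libraries, which in the shallowest library allows up to 0.381 CPM by a limit of 3 counts. The exception, *Ifng*, reached at most 15 counts, and none of the 14 passed the filter. The receptor genes were measured in all mice. *Ifnar1* was 72.1 to 96.2 CPM and *Ifnar2* 107 to 137 CPM, with log2 fold changes over both *Trp53* genotypes of 0.03 and -0.08. *Irf7*, the master factor for interferon production that is itself a target, was 123, 151 and 119 CPM in Ddx41+/+Trp53+/- and 167 and 188 in Ddx41+/-Trp53+/- mice. Its groups were separate there (0.44, SE 0.128, adjusted p = 1.00, edgeR), whereas with Trp53+/+ it was 147, 155 and 197 against 148 and 181, with overlap (-0.01). *Irf1* was at 0.31 over both genotypes (SE 0.245), with mouse 23 the highest. *Irf8*, a factor of myeloid and B cells chosen here after its values were seen, came nearest to a call among the signalling genes. It was 35.4, 25 and 31.5 CPM in Ddx41+/+Trp53+/+ mice, 42 and 46.2 in Ddx41+/-Trp53+/+, 39.8, 45.7 and 48.7 in Ddx41+/+Trp53+/- and 46.7 and 39.7 in Ddx41+/-Trp53+/- mice. The Ddx41+/+Trp53+/+ mice were below all others, with log2 fold changes of 0.55 for *Trp53* in Ddx41+/+ mice (adjusted p = 0.0536, edgeR) and 0.52 for *Ddx41* with Trp53+/+ (adjusted p = 0.14), and an interaction of -0.58 (adjusted p = 0.788). The B cell markers described above were higher in the same comparisons.

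Of 23 tested genes of interferon signalling, 16 further genes of class I antigen presentation and 7 further genes of ISG15 conjugation, 0 were called in any of the 6 comparisons by edgeR's quasi-likelihood test. Of all genes, 0.0422% to 0.912% were called in these comparisons. In the additive *Ddx41* comparison, 1 of 23, 1 of 16 and 0 of 7 were higher at an unadjusted p under 0.05 (5.06% of all genes). In the lower direction there were 0, 1 and 0 (3.93%). For lists this short, such counts are about what the shares over all genes would give. *B2m* was at 0.12 and *H2-K1* at 0.17, against standard errors of 0.156 and 0.164. *Ube2l6*, the enzyme that carries ISG15 to its targets, was 1406 to 1698 CPM in all mice, with a log2 fold change of 0.01 (SE 0.051).

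**Figure D5:**
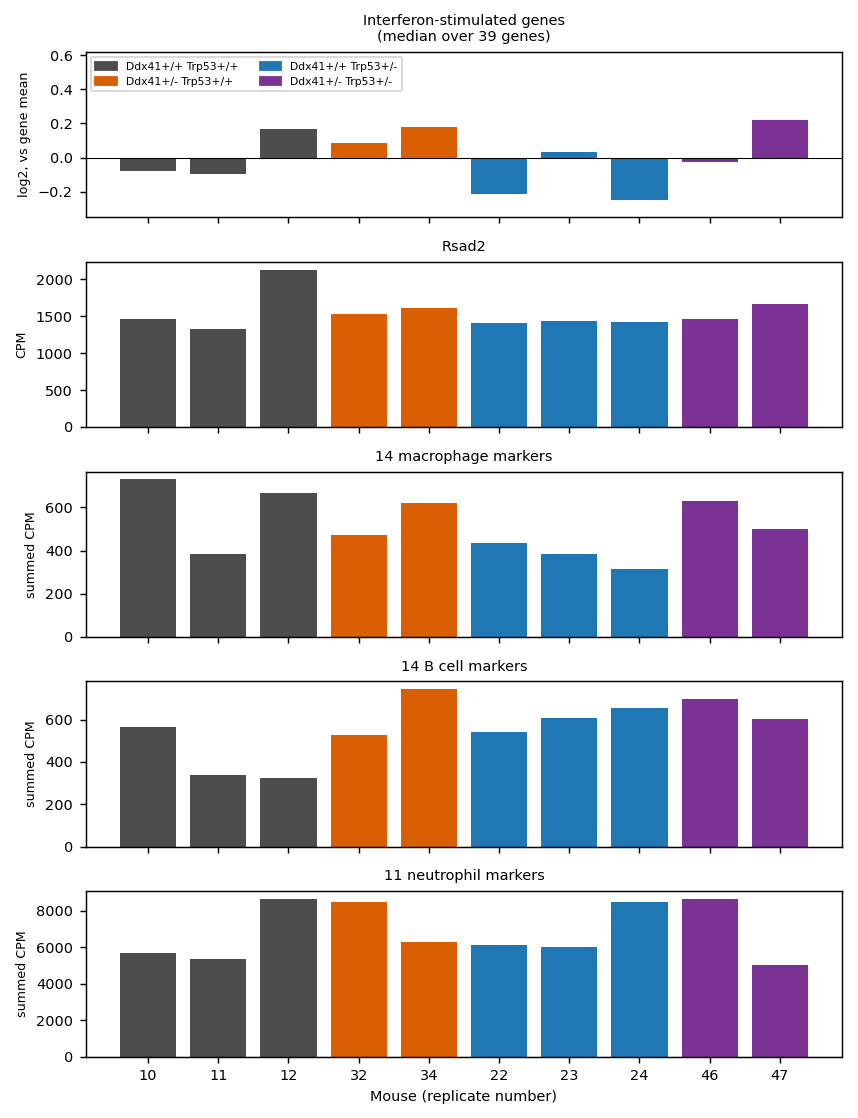
Bars of values per mouse (replicate number on the x axis), coloured by genotype: the median deviation of the 39 genes from their means (log2), the CPM of *Rsad2*, and the summed CPM of macrophage, B cell and neutrophil marker genes. Macrophage markers summed to 313 to 436 CPM in the Ddx41+/+Trp53+/- mice, the 39 genes were lowest in mice 22 and 24 of that genotype, and *Rsad2* was highest in mouse 12 at 2134 CPM.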

How the data were processed

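RNA-seq was analysed from R2 cells of 10 mice in 4 genotypes, 2 or 3 mice each. The authors deposited whole-number read counts by gene symbol that were not normalized. Mice 35 and 45 are named in that deposit as removed and were not used here. The submitters' processing notes list FastQC 0.11.7, HISAT2 2.0.5, featureCounts 1.5.2 and mm10. The strand setting and the annotation are not given in the sources used here, and the paper and the labels name different TruSeq kits.

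The analysis used edgeR 4.0.16 in R 4.3.3, with a filter on low counts by genotype (12575 genes removed), TMM scaling, and a quasi-likelihood model with 1 mean per genotype over all 10 mice, or additive in *Ddx41* and *Trp53*. P-values were two-sided and were adjusted by Benjamini-Hochberg over 11846 genes. The scripts were tested on simulated data. The precision is set by 2 or 3 mice per genotype, and the floor of 3 counts covers counting error only. Alternatives were DESeq2 1.42.0, its size factors, edgeR's likelihood ratio test, other filters and call rules, only the genotypes compared, 8 mice, and each mouse left out. Lengths and overlaps came from the GENCODE annotation of GRCm38, and promoters from RefSeq.

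The genes and lists were chosen with earlier results of these data known. Values by mouse were given for the 5 genes with the smallest p in each comparison, the 5 highest per length, and *Stat2*, *Irf9* and *Isg15*. Each of the 39 is named in its role group. Other pathway genes were counted by list and 7 of them named by rule, and 1 gene is not reported here. Values of *Tap1* and *Irf8* by mouse were added after they were seen.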

Additional observations from a re-analysis of the deposited data

How the results depend on the processing

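The log2 fold changes of the genes with the smallest p in each comparison were recomputed in 500 checks, each gene only in that comparison. Of these checks, 479 kept the direction and the side of the threshold, 21 passed the threshold where the reported fit did not, and 0 changed direction. These genes were picked by p in the same mice, so a kept direction says little about the other genes. *Rsad2*, *Isg15*, *Tapbp*, *Oas3* and *Irf9*, also given by mouse, were not among the genes checked. The medians over the 39 genes moved by more than the spread between replicates (SD 0.145) in 3 cases. With Trp53+/+ the median for *Ddx41* was 0.25 over 8 mice (without Ddx41+/+ replicates 12 and 23) and 0.25 without replicate 12, and the median interaction was 0.27 without replicate 23.

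Counts of called genes, 0 of 39 in every comparison as reported, moved as follows. In brackets is the share of all genes called in the same fit. Calls at an unadjusted p kept the limit of 1.5-fold, except for the interaction. They are therefore fewer than the counts at an unadjusted p under 0.05 given further above, which had no fold limit. For *Ddx41* with Trp53+/+, 2 were called over 8 mice (1.04%), 1 by DESeq2 (1.11%) and 1 by the likelihood ratio test (1.54%). With no filter on low counts 5 were called (1.51%), and at an unadjusted p 4. For *Ddx41* with Trp53+/-, 2 were called with no filter (0.242%) and 3 at an unadjusted p. For *Ddx41* over both *Trp53* genotypes, 5 were called over 8 mice (0.297%), 1 by DESeq2 (0.312%) and 1 by the likelihood ratio test (0.439%). With no filter 2 were called there (0.583%), and at an unadjusted p 2. For *Trp53*, 1 was called with no filter in Ddx41+/+ mice (1.55%), 1 at an unadjusted p in Ddx41+/+ mice and 1 at an unadjusted p in Ddx41+/- mice. For the interaction, 2 were called at an unadjusted p, both positive (2.3% of all genes were positive and 2.7% negative). For the other counts at an unadjusted p, the share of all genes under the same rule is not printed here. Those counts are therefore not read as a result about the 39 genes. The unfiltered fit tested more genes and called more of all genes (243 against 64 for *Ddx41* with Trp53+/+). The cause of the other moves was not tested.

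With each mouse left out in turn, calls ranged from 0 to 1 for *Ddx41* with Trp53+/+ (1 without replicate 12), from 0 to 2 over both *Trp53* genotypes (2 without replicate 23), and were 0 throughout in the other 4 comparisons. The medians ranged from 0.027 to 0.25 for *Ddx41* with Trp53+/+, 0.11 to 0.34 with Trp53+/-, 0.12 to 0.22 over both, -0.0035 to 0.27 for the interaction, -0.26 to -0.03 for *Trp53* in Ddx41+/+ mice (-0.03 without replicate 12) and -0.12 to 0.07 in Ddx41+/- mice. Where a genotype was left with 1 mouse, that mouse was assumed to vary like the other genotypes. No paired analysis was possible because the genotypes share no replicate numbers.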
